A study of Mus musculus with 140 samples.

Results

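Csrp3, Ankrd1, Ankrd2, Lmcd1, Xirp1, Flnc, Fhl1 and Nexn encode proteins of the muscle Z-disc and its titin and actin attachments, and their messages were followed after a bout of running. The genes were chosen by name, with earlier results of these data known. The Ensembl identifiers of all 8 were found through the GRCm38 annotation among the 11461 genes in the deposited tables. RNA was sequenced from the gastrocnemius, the large calf muscle, of male C57B6/J mice of 10 to 11 weeks that ate freely and were not described as carrying any allele. Mice ran for 1 h on a treadmill at ZT3, in the early rest phase (ZT, zeitgeber time, is hours after lights on), or at ZT15, in the early active phase, and muscle was taken 0, 4, 8, 12, 16 or 20 h later. Each phase had its own sham mice, which stood on a stationary treadmill for 1 h and were killed at the same 6 hours. The labels give replicate numbers and name no pooling, so each library was read as 1 mouse. Of 140 labelled samples 3 had no file here (2 exercised and 1 sham at 0 h in the rest phase, not analysed here): 18 of the 24 groups held 6 libraries, 5 held 5, and the exercised group at 0 h in the rest phase held 4.

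The Z-disc anchors actin filaments and titin at the ends of each sarcomere, and it is also where muscle senses strain. Ankyrin-repeat proteins bind the elastic part of titin, LIM-domain proteins such as muscle LIM protein dock at the Z-disc and can move to the nucleus, and filamin C and Xin-repeat proteins crosslink actin and gather where myofibrils are damaged. Many of these messages are known to rise in muscle that is stretched, overloaded or exercised by lengthening contractions. A gastrocnemius is mostly fast fibres with a smaller slow portion, and several of these genes are known for higher levels in slow or cardiac muscle. In whole muscle, fewer cells of a type and less RNA per cell cannot be told apart.

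All values below are normalised read counts, which the authors divided by a scaled library size, and an exercise effect is the difference of group means of log2(value + 0.5), exercised minus sham, at the same hour and phase. An effect passed when its limma p-value, Benjamini-Hochberg adjusted over all 11461 genes, was under 0.05. Library depth, recovered from the deposited values, ran from 2193875 to 27589362 reads with a median of 11036521. As a check of the tissue, the summed level of muscle fibre identity genes lay between 89425 and 194574 in all libraries. Of the marker genes looked up for fibres or for other cell types, none of those measured was at 0 in any library. Measured were 9 of 10 slow fibre, 5 of 6 smooth muscle and 2 of 5 satellite cell markers, and all markers of the other cell type lists. A marker absent from the deposited tables could not be checked. In 6 libraries the correlation with the other libraries of the group had a median under 0.9 (0.843 to 0.894), and results that change without them are given with both values.

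Per kilobase of annotated exon, the mean level over all libraries was highest for Fhl1, at 106.7 ± 34.3, followed by Csrp3 at 64.5 ± 40.5, Ankrd2 at 49.1 ± 20.01, Lmcd1 at 39.5 ± 13.4 and Flnc at 39.4 ± 17.98 (mean ± SD of value per kb). Nexn at 9.47 ± 1.97, Xirp1 at 8.69 ± 6.82 and Ankrd1 at 1.32 ± 1.2 were the low members. Csrp3 and Ankrd2 differed by less than their spread between libraries, as did Ankrd2, Lmcd1 and Flnc among themselves, and Nexn and Xirp1. Ankrd1, the cardiac ankyrin repeat protein, rested on 1 to 734 reads per library with a median of 28, the fewest of the members. The SD within groups on the log2 scale was largest for Xirp1, at 0.87, and Ankrd1, at 0.83, against a median of 0.41 over all genes, and smallest for Nexn, at 0.29.

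Csrp3, Ankrd2 and Lmcd1 are the members that rose in both phases, and Ankrd1 is the paralogue of Ankrd2, so the sequence around their start sites is shown before the values. The promoter table from RefSeq (GRCm38.p6) matched 6 of the 8 genes; each entry covers 250 bases before the start and 50 after it, and the entry nearest to the annotated gene start was used. The windows are chr7:48848002-48848301 on the minus strand for Csrp3, chr19:42035777-42036076 on the plus strand for Ankrd2, chr6:112273508-112273807 on the plus strand for Lmcd1 and chr19:36119795-36120094 on the minus strand for Ankrd1. Each is written 5′ to 3′ along its gene, with motif matches in capitals.
Csrp3: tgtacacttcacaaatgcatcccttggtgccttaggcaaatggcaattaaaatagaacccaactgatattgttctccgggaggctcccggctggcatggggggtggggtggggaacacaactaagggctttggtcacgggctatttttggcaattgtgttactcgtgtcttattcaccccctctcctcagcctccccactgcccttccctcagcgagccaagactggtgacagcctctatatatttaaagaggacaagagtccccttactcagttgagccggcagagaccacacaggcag
Ankrd2: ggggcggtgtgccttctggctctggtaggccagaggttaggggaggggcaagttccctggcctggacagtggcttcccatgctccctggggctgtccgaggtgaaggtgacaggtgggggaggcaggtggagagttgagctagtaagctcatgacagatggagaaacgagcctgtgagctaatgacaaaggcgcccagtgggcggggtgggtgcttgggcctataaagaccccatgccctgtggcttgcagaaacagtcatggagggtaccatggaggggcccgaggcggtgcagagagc
Lmcd1: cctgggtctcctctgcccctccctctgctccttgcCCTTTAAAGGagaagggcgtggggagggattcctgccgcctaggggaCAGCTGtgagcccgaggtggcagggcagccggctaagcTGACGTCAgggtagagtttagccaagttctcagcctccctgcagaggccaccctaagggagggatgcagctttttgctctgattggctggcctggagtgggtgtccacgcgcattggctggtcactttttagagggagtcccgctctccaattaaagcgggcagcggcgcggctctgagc
Ankrd1: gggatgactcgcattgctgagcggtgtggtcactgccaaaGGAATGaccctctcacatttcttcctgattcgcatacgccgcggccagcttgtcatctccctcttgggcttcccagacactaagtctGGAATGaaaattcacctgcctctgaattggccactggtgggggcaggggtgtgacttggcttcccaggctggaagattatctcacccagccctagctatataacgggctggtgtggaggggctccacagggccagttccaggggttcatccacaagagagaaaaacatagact

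Both strands of the windows were searched for M-CAT (GGAATG, the element bound by TEAD factors), the myogenic E-box CAGCTG, AP-1 (TGANTCA), CRE (TGACGTCA) and the CArG and MEF2 elements, and no matches overlapped each other. The Lmcd1 window held a CArG element 215 bases before the start, the E-box 168 bases before and a CRE 130 bases before. The Ankrd1 window held 2 M-CAT matches. In the windows of Csrp3 and Ankrd2 none of these letters was found, which says only that they are not in this stretch. Flnc had 1 M-CAT match and Fhl1 1 CArG match. The Fhl1 window, chrX:56779433-56779732 on the plus strand, lies inside the annotated gene and not at its start, 56731787. Xirp1 and Nexn are named only. Over 32851 promoters of the same length, 14.7% held M-CAT, 16.3% the E-box, 7.81% AP-1, 1.79% CRE, 1.63% CArG and 0.557% MEF2.

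Over the 6 hours together, 3 members were higher past the threshold after rest-phase running and 5 after active-phase running, each by less than 2-fold. Csrp3, Ankrd2 and Lmcd1 rose in both phases, Csrp3 with the highest rest-phase effect. Ankrd1 and Xirp1 rose in the active phase and missed the threshold in the rest phase, and the difference between phases did not pass for either. Fhl1, Flnc and Nexn did not pass in either phase. The 3 of 8 members in the rest phase stand against 33 of 11461 genes (0.288%), and the 5 of 8 in the active phase against 57 genes (0.497%). Because the members were chosen with earlier results of these data known, these shares are no test of the set. The members' median log2 effect was 0.51 after rest-phase running and 0.46 after active-phase running, where the medians over all genes were 0.01 and 0.00. Among 18 genes that passed as higher in both phases (0.157% of those tested), 3 were Csrp3, Ankrd2 and Lmcd1.

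The rest-phase means of these 3 passed in limma with the libraries of each replicate number left out in turn, and the active-phase means did not. Without the libraries numbered 5, 0 of the 8 active-phase means passed in limma (Csrp3 0.69, adjusted p = 0.082; Ankrd2 0.43, 0.095; Lmcd1 0.32, 0.18), where 27 of all genes did (0.236%). Without those numbered 1, Csrp3 alone passed in the active phase, and Ankrd2 was at 0.41 (limma, adjusted p = 0.13). Csrp3 itself missed the threshold without replicate 3 (0.58), 4 (0.63), 5 or 6 (0.53), with adjusted p of 0.057 to 0.16. Lmcd1 missed it also without replicate 2 (0.37; limma, adjusted p = 0.061), and Xirp1 without replicate 2 (0.70) or 3 (0.82), while Flnc passed without replicate 4 (0.57) or 6 (0.56). edgeR and DESeq2 on recovered reads each called 4 of the 5, all but Ankrd1. Without the 6 poorly correlated libraries, 6 members passed in the active phase, Flnc being the added one at 0.53 (limma, adjusted p = 0.016), where 1.62% of genes passed.

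**Figure D1:**
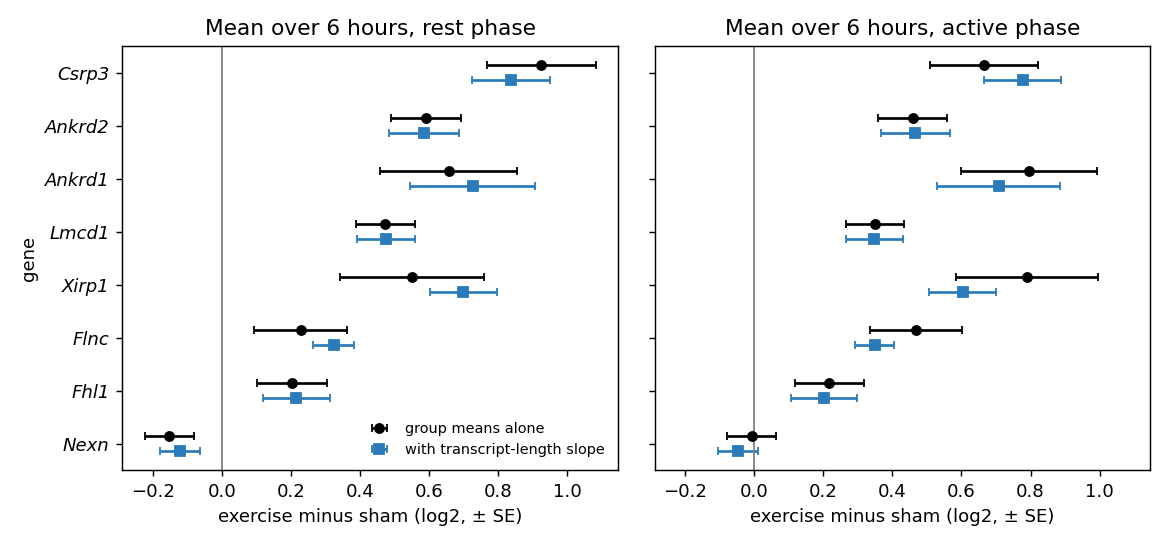
Exercise effect averaged over the 6 hours, as a log2 difference of exercised minus sham, for each of the 8 genes in each phase, from the group means alone (black circles) and with each library's transcript-length slope in the model (blue squares), with bars of ±1 SE. In the rest phase Csrp3 sits highest at 0.92 and Nexn lowest at -0.15, and adding the slope raises Xirp1 from 0.55 to 0.70 there.

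Csrp3 (chr7:48830398-48848033, minus strand, GRCm38) encodes muscle LIM protein, a Z-disc and nuclear LIM protein whose loss in mice leads to dilated cardiomyopathy. Right after the rest-phase bout the 4 exercised libraries were at 76.1, 77.5, 81.6 and 126.4, and the 5 sham libraries at 120.8, 135.4, 137.3, 166 and 196. The groups overlapped through 1 exercised library, and the log2 change of -0.75 (SE 0.43) did not pass (limma, adjusted p = 0.38). From 4 h on, the exercised mean was the higher one at every hour, as held for 745 of 11461 genes (6.5%).

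At 4 h in the rest phase, exercised libraries ran from 175 through a median of 292 to 452, and sham libraries from 68.8 through 104.01 to 265. At 8 h, exercised libraries ran from 120.6 through 153 to 208, and the 5 sham libraries were at 88.5, 89.4, 96.7, 109.4 and 151. The high end of the sham group reached into the exercised group at both hours, and the log2 changes were 1.24 (SE 0.37) and 0.60 (SE 0.39). At 12 h the groups stood apart: the exercised libraries were between 260.0 and 452, with a median of 354, and the sham libraries between 36.7 and 167, with a median of 102.4. All 6 exercised libraries lay above all 6 sham libraries, which held upward for 11 of the 11461 genes (0.096%) at that hour, and the log2 change of 1.92 (SE 0.37, n = 6 and 6) passed (limma, adjusted p = 0.012). At 12 h, 6 genes of all those tested passed (0.0524%), and Csrp3 and Lmcd1 were 2 of them. The Csrp3 call missed the threshold in limma without exercised replicate 2 (1.85, adjusted p = 0.079), exercised replicate 5 (1.85, 0.074), sham replicate 3 (1.87, 0.056) or sham replicate 6 (1.66, 0.057). Without all libraries numbered 5 the change was 1.77 (limma, adjusted p = 0.21).

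The later rest-phase hours kept the direction with more overlap. At 16 h, exercised libraries spanned 141.2 to 350.1 around a median of 177, and sham libraries 51.7 to 153 around 84.03. At 20 h, exercised libraries spanned 85.8 to 446 around 253, and sham libraries 45.6 to 214 around 78.02. A single exercised library at 20 h, replicate 6, was at the low end, and it is 1 of the 6 libraries that correlate poorly with their group. With it the change of 1.43 did not pass (limma, adjusted p = 0.47), and without it the change was 1.71 (limma, adjusted p = 0.041). Without all 6 such libraries it was again 1.71 (limma, adjusted p = 0.026), where 0.0436% of genes passed.

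In the active phase Csrp3 was likewise not high at once, with medians of 103.5 in exercised and 115.1 in sham mice at 0 h. Exercised medians then exceeded sham medians at 4 h (187 against 101.6), 12 h (255 against 133.2), 16 h (207 against 127.9) and 20 h (217 against 98.2), while at 8 h they were 157 and 158. The exercised libraries at 16 h ran up to 603, the highest Csrp3 value in the series, and down to 101.2, inside the sham range of 49.7 to 130.3. The log2 changes from 4 to 20 h lay between 0.26 and 1.18, and the exercised and sham groups overlapped at every hour.

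Averaged over the 6 hours, Csrp3 rose by 0.92 (SE 0.16) on the log2 scale in the rest phase, a 1.897-fold change (limma, adjusted p = 0.00012), and by 0.67 (SE 0.16), 1.59-fold, in the active phase (limma, adjusted p = 0.014). It ranked 4 of all genes by p-value after rest-phase running and 31 after active-phase running. Set against its own 0 h, the mean of the 5 later rest-phase hours was higher by 2.01 (SE 0.46; limma, adjusted p = 0.019), a contrast chosen after the data were seen. That contrast passed for 26 genes (0.227%), and of these 2 moved upward (0.0175%). With the transcript-length slope in the model the same contrast was 1.32 and missed the threshold (limma, adjusted p = 0.061), and so did edgeR on recovered reads (1.95, adjusted p = 0.055), while DESeq2 called it (1.98, adjusted p = 0.013).

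**Figure D2:**
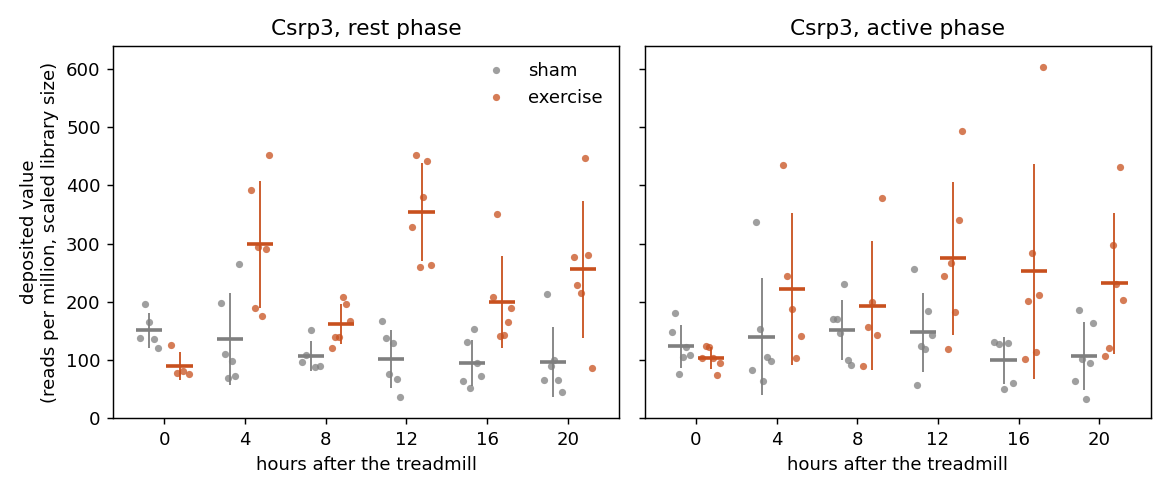
Csrp3 level (normalised read count, y axis) by hours after the bout (x axis) in the rest phase and the active phase; each point is a library, the horizontal bar the group mean and the vertical bar ±1 SD. At 12 h in the rest phase the 6 exercised libraries (260.0 to 452) clear the 6 sham libraries (36.7 to 167), and at 0 h in the rest phase the order is the other way (mean 90.4 against 151).

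Ankrd2 (chr19:42036000-42045110, plus strand) encodes an ankyrin-repeat protein that binds titin's elastic part and is known for its high level in slow fibres. At 0 h in the rest phase its exercised libraries were at 31.5, 35.8, 45.8 and 54.1 and its sham libraries at 29.9, 41.01, 52.2, 55.6 and 59.5. Those groups overlapped, and the log2 change was -0.18. At each later hour the mean was higher after running, from 47.1 ± 13.7 to 70.5 ± 12.4 at 4 h (SD, n = 6 and 6) up to 43.97 ± 10.4 against 94.5 ± 43.6 at 20 h (SD, n = 6 and 6). Of all genes 6.5% were higher at each of these later hours.

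At 20 h the exercised libraries of Ankrd2 ran from 55.9 through a median of 81.1 to 180, the highest Ankrd2 value of the series, and the sham libraries from 31.1 through 44.3 to 58.3. The overlap was narrow, and the change of 1.03 (SE 0.24) missed the threshold (limma, adjusted p = 0.13). Without exercised replicate 6 it was 1.16 and passed (limma, adjusted p = 0.028), and DESeq2 on all recovered reads called it (1.11, adjusted p = 0.016). In the active phase the clearest separation was at 8 h, where the 5 exercised libraries were at 62.9, 67.2, 70.6, 79.99 and 86.1 and the sham libraries between 43.7 and 53.1 with a median of 48.7. All 5 lay above all sham libraries, as held for 0.689% of genes at that hour, and the change of 0.58 did not pass (limma, adjusted p = 0.20).

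The mean effect on Ankrd2 was 0.59 (SE 0.10; limma, adjusted p = 0.00012) in the rest phase and 0.46 (SE 0.10; limma, adjusted p = 0.0069) in the active phase. At 4 h in the active phase its effect was -0.08, and the other later hours there were higher, between 0.48 and 0.89. Its paralogue Ankrd1 (chr19:36111961-36120099, minus strand), which stretch and injury raise in skeletal muscle, had a mean effect of 0.66 (SE 0.20; limma, adjusted p = 0.22) in the rest phase and 0.80 (SE 0.20; limma, adjusted p = 0.026) in the active phase. The largest step for Ankrd1 was at 12 h in the active phase, where exercised libraries ran from 1.52 through 7.69 to 18.6 and sham libraries from 0.798 through 1.65 to 5.81. These overlapped, and the change was 1.49 (SE 0.47) with no call. Ankrd23, the third member of the titin-binding ankyrin family, had mean effects of 0.08 and -0.00.

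Lmcd1 (chr6:112273758-112330425, plus strand) encodes a LIM and cysteine-rich domain protein that acts with calcineurin and GATA factors in heart muscle of mice. At 0 h in the rest phase its sham libraries were at 48.96, 55.4, 55.9, 62.2 and 62.5 and its exercised libraries at 40.8, 52.01, 60.8 and 73.9, and the groups overlapped. At 12 h the exercised libraries ran from 69.03 through a median of 97.4 to 112.4 and the sham libraries from 41.2 through 47.9 to 55.1. All 6 exercised libraries lay above the sham libraries. The log2 change of 0.94 (SE 0.20, n = 6 and 6) passed (limma, adjusted p = 0.025).

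That Lmcd1 call sits near the threshold. It passed without exercised replicate 3 (adjusted p = 0.016) or 4 (0.035) in limma, and with any of the other 10 libraries of that hour left out in turn its adjusted p was 0.053 to 0.14. Without all libraries numbered 5 the change was 0.87 (limma, adjusted p = 0.24). The mean effect was 0.47 (SE 0.09; limma, adjusted p = 0.00033) in the rest phase and 0.35 (SE 0.08; limma, adjusted p = 0.019) in the active phase, and with the libraries of a replicate number left out in turn the rest-phase mean alone passed in all 6 fits. In the active phase the Lmcd1 mean was lower after running at 4 h (71.5 ± 35.6 in 6 sham and 56.9 ± 10.7 in 5 exercised libraries, SD), where 1 sham library reached 135.5, and at each later hour it was higher, by 0.41 to 0.66, without a call. The annotated span of Lmcd1 overlaps an antisense gene, and no source used here states the strand setting of the counting, so reads from the pair cannot be told apart. Lmcd1 also overlaps Gm44193 on the same strand, which adds to the uncertainty of its counts.

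**Figure D3:**
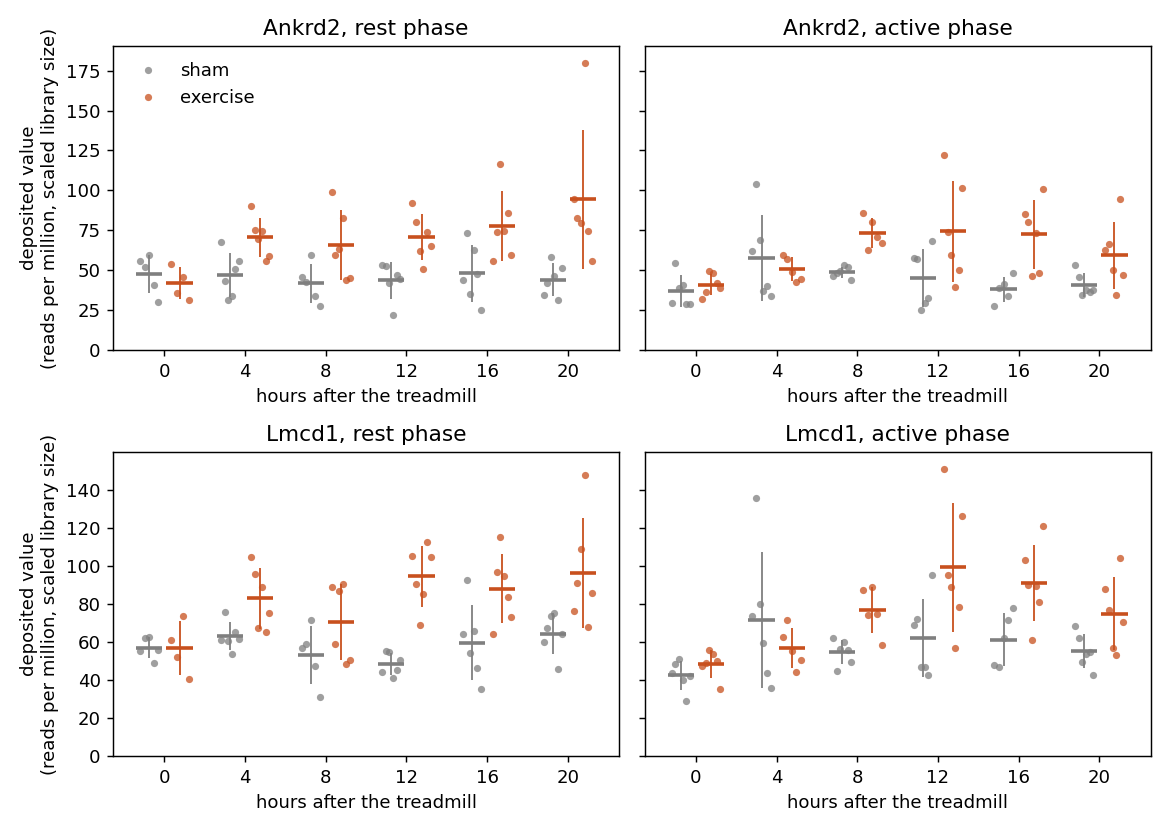
Ankrd2 and Lmcd1 levels (normalised read count, y axis) by hours after the bout in each phase; points are libraries, horizontal bars means and vertical bars ±1 SD. Lmcd1 at 12 h in the rest phase (69.03 to 112.4 exercised, 41.2 to 55.1 sham) and Ankrd2 at 8 h in the active phase (62.9 to 86.1 exercised, 43.7 to 53.1 sham) are the separated pairs.

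For the actin crosslinkers Xirp1 and Flnc the exercised values were above the sham values already at 0 h in the rest phase, without a call. Xirp1 (chr9:120013755-120023598, minus strand) encodes Xin, an actin-binding repeat protein found at myotendinous junctions and at sites of fibre damage, and Flnc (chr6:29433256-29461883, plus strand) encodes muscle filamin, which binds Xin. At 0 h in the rest phase, Xirp1 was at 31.9, 38.6, 44.4 and 100.6 in the exercised libraries and at 9.71, 16.2, 18.7, 18.8 and 20.2 in the sham libraries. Flnc was at 241, 258, 319.8 and 352 after running and at 158, 184, 191, 192 and 201 in sham mice. Neither gene's groups overlapped, but 12.7% of all genes had every exercised library above every sham library at that hour (11.1% had the reverse), so the separation is common there. The changes of 1.55 (SE 0.57) and 0.65 (SE 0.37) did not pass (limma, adjusted p = 0.30 and 0.37).

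In the active phase the exercised means of both were above sham at 0 h (Xirp1 56.02 against 19.5, Flnc 382 against 226) and again at 8 h, with no call in limma. Xirp1 at 8 h was at 24.9, 78.99, 124.04, 143.6 and 155 in the exercised libraries and between 21.8 and 37.4 in sham libraries, a change of 1.67 (SE 0.52), with 1 exercised library inside the sham range. Flnc at 8 h was at 261, 480.1, 673, 676 and 745 after running and between 207 and 314 in sham mice, a change of 1.05, with 1 exercised library again in the sham range. Without the libraries numbered 6 the 8 h effects were 2.13 (SE 0.56; limma, adjusted p = 0.041) for Xirp1, 1.31 (SE 0.36; 0.041) for Flnc, 1.36 for Ankrd1 (0.046) and 0.53 for Nexn (0.043), and with those libraries they did not pass. In that fit 28% of all genes passed at 8 h, so the calls are not particular to these members. At 8 h the 9 endothelial markers had a median effect of 1.10, with 8 of 9 positive. Of these markers 0 passed in limma, edgeR or DESeq2 and 7 had an unadjusted p under 0.05 in each, where 2805 of 11461 genes did in limma. Over all 6 hours of the active phase their summed level lay between 92.8 and 322 in exercised and between 99.6 and 334 in sham libraries. None of the 9 was at 0, and their part in the 8 h values was not tested. Over the 6 hours the active-phase mean effect passed for Xirp1 (0.79, SE 0.21; limma, adjusted p = 0.044) and not for Flnc (0.47, SE 0.13; limma, adjusted p = 0.088). The rest-phase means were 0.55 (SE 0.21; limma, adjusted p = 0.63) and 0.23 (SE 0.13). The annotated span of Xirp1 overlaps Cx3cr1 on the same strand, so its counts are uncertain to that extent.

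Fhl1 (chrX:56731787-56793346, plus strand), a LIM-only protein whose mutations cause reducing body myopathy in humans, had mean effects of 0.20 (SE 0.10) and 0.22 (SE 0.10; limma, adjusted p = 0.50 in the active phase). Its group means lay between 306 and 400 in the rest-phase sham groups and between 356 and 506 in the exercised ones. The exercised mean was the higher one at each later rest-phase hour, as held for 745 of 11461 genes (6.5%). Nexn (chr3:152236982-152266350, minus strand), an actin-binding Z-disc protein, had mean effects of -0.15 (SE 0.07; limma, adjusted p = 0.97) and -0.01 (SE 0.07), and its effect was below 0 at all 5 later rest-phase hours. Its 24 group means stayed between 30.3 and 45.5. No hour passed for either gene in limma. The annotated span of Fhl1 overlaps Gm23258 and that of Nexn overlaps Gm43185, each on the same strand, so their counts are uncertain to that extent.

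**Figure D4:**
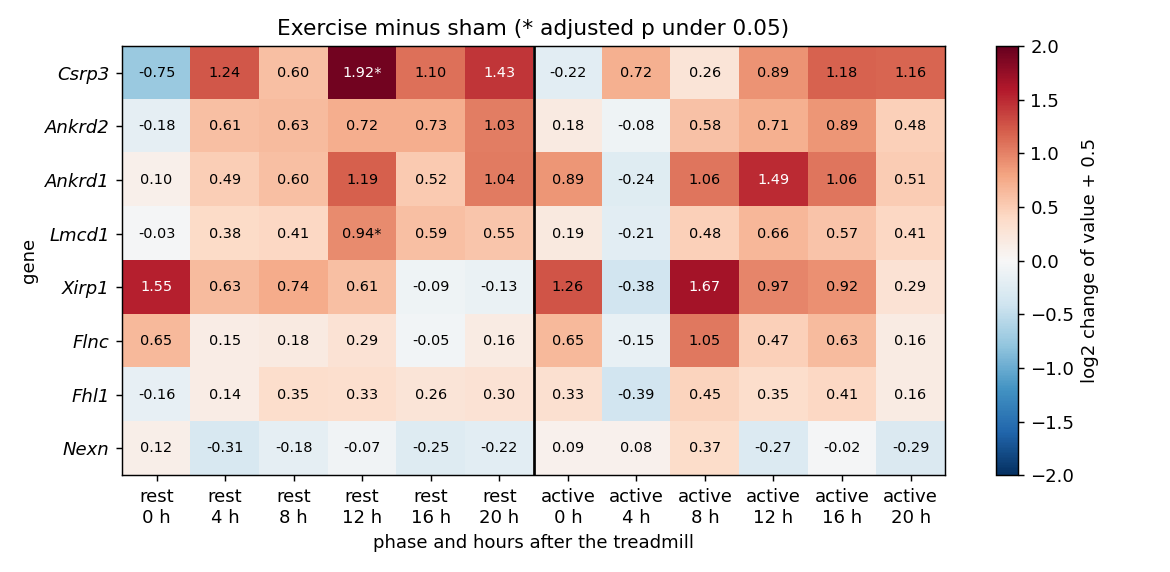
Log2 exercise effect (colour) of the 8 genes (rows) at each hour in the rest and active phases (columns); an asterisk marks an adjusted p under 0.05. The asterisks are at 12 h in the rest phase for Csrp3 (1.92) and Lmcd1 (0.94), Xirp1 has its highest rest-phase value at 0 h (1.55), and Nexn stays between -0.31 and 0.37.

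Of the 48 gene-by-hour comparisons in the rest phase 2 passed in limma and in edgeR and 3 in DESeq2, which added Ankrd2 at 20 h, and 15 had an unadjusted p under 0.05 in each. In hour order from 0 to 20 h, the share of all genes that passed after rest-phase running was 0.349%, 0.0175%, 0.00873%, 0.0524%, 0% and 0%, and after active-phase running 1.18%, 0.0175%, 0%, 0.00873%, 0% and 0%. Of the 48 in the active phase 0 passed in limma, 19 had an unadjusted p under 0.05, and edgeR and DESeq2 on recovered reads also called 0, with 20 each at an unadjusted p under 0.05. The test of all 6 hours together passed for Csrp3, Ankrd2 and Lmcd1 after rest-phase running (limma, adjusted p = 2.6e-06, 0.00027 and 0.00074) and after active-phase running (0.035, 0.018 and 0.032). It passed for 28 genes (0.244%) after rest-phase running and 80 (0.698%) after active-phase running. With the libraries of a replicate number left out in turn, the rest-phase calls held in all 6 fits, and the active-phase count ran from 0 (without replicate 1, 3 or 5) to 6 (without replicate 6). Without the 6 poorly correlated libraries 5 members passed there and Csrp3 did not, where 5.52% of genes passed. All 10 later hours of the 2 phases were higher after running for 39 genes (0.34%), and Csrp3 was the 1 member among them.

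The exercise effects of the phases were not told apart by these tests. The difference of the mean effects, active minus rest, was -0.26 for Csrp3 (95% interval -0.69 to 0.18), -0.13 for Ankrd2 (-0.41 to 0.15) and -0.12 for Lmcd1 (-0.36 to 0.11). For Xirp1 and Flnc it was 0.24 for each, for Ankrd1 and Nexn 0.14 each, and for Fhl1 0.01. In limma 0 of 8 members passed for this difference and 0 had an unadjusted p under 0.05, as in edgeR and DESeq2. Of all genes 0 passed in limma (0%). The same counts of 0 held for the test of the phase difference over all hours jointly. Hour by hour, 0 of 48 phase differences passed in limma, edgeR or DESeq2. An unadjusted p under 0.05 was reached by 3, 5 and 4 of them. In edgeR these were Lmcd1 (-0.70), Ankrd2 (-0.74) and Fhl1 (-0.76) at 4 h, and Nexn (0.61) and Flnc (0.94) at 8 h. The widest gap at a single hour for Csrp3 was at 12 h, with -1.03 (95% interval -2.06 to 0.00; limma, adjusted p = 0.69). The intervals for Csrp3 still allow an active-phase effect smaller than the rest-phase one by 0.69 or larger by 0.18.

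Over all 6 hours together the effects of single hours were not told apart either, apart from the Csrp3 contrast of later hours with 0 h given above. The test that the effect differs between hours passed for 0 of 8 members in limma (1 in each phase at an unadjusted p under 0.05: Csrp3 in the rest phase and Lmcd1 in the active phase), in edgeR and in DESeq2, where 3 members in the rest phase had an unadjusted p under 0.05 in each. In the active phase 5 members in edgeR and 6 in DESeq2 had one. It passed for 0.096% of genes after rest-phase running and 0.253% after active-phase running. Over all 11461 genes in limma, 430 after rest-phase running and 1048 after active-phase running had an unadjusted p under 0.05.

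In sham mice the 8 messages did not pass for time of day. Lmcd1 had its lowest sham mean at ZT16, 42.5 ± 7.7 (SD, n = 6) in the active arm and 48.5 ± 5.8 (SD, n = 6) in the rest arm, and sham means of 53.2 to 71.5 at the other clock times. Xirp1 in sham mice ranged from 16.7 ± 4.2 (SD, n = 5) at ZT4 in the rest arm to 91.3 ± 64.6 (SD, n = 6) at ZT20 in the active arm. The adjusted p in limma was 0.19 for Lmcd1, 0.20 for Xirp1 and 0.28 (Nexn) to 0.59 (Csrp3) for the other 6, and 3.66% of genes passed. In limma 2 members had an unadjusted p under 0.05, as did 2084 of 11461 genes. For time of day edgeR called 0 members and DESeq2 1, Xirp1. Sham mice of both arms at the same clock time did not differ by a call for any member in limma or edgeR, and DESeq2 called Xirp1. In limma 0.768% of genes passed between the arms. There an unadjusted p under 0.05 was reached by 2 members, Flnc and Xirp1, and by 2760 of 11461 genes.

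Part of the spread between libraries ran with a library property. For each library the slope of its gene-level deviations on log2 exon length was computed over 10801 protein-coding genes; a positive slope means longer transcripts read relatively high. Within groups, over all libraries, Flnc followed it with Pearson r = 0.91 (Spearman rho = 0.90), Xirp1 with r = 0.89 (rho = 0.89) and Csrp3 against it with r = -0.71 (rho = -0.69). Each has the smallest p that 100000 permutations within groups can give, 1e-05, and an adjusted p of 3.2e-05 over 16 relations. Nexn (r = 0.57) and Ankrd1 (r = 0.44) also passed, and Fhl1 (0.15), Ankrd2 (-0.08) and Lmcd1 (0.02) did not. Without the 2 libraries farthest from the median slope r was 0.90, 0.88 and -0.69 for the first 3, and within the 3 replicate strata (replicates 1 and 2, 3 and 4, 5 and 6) it was 0.89 to 0.92 for Flnc and -0.70 to -0.83 for Csrp3.

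**Figure D5:**
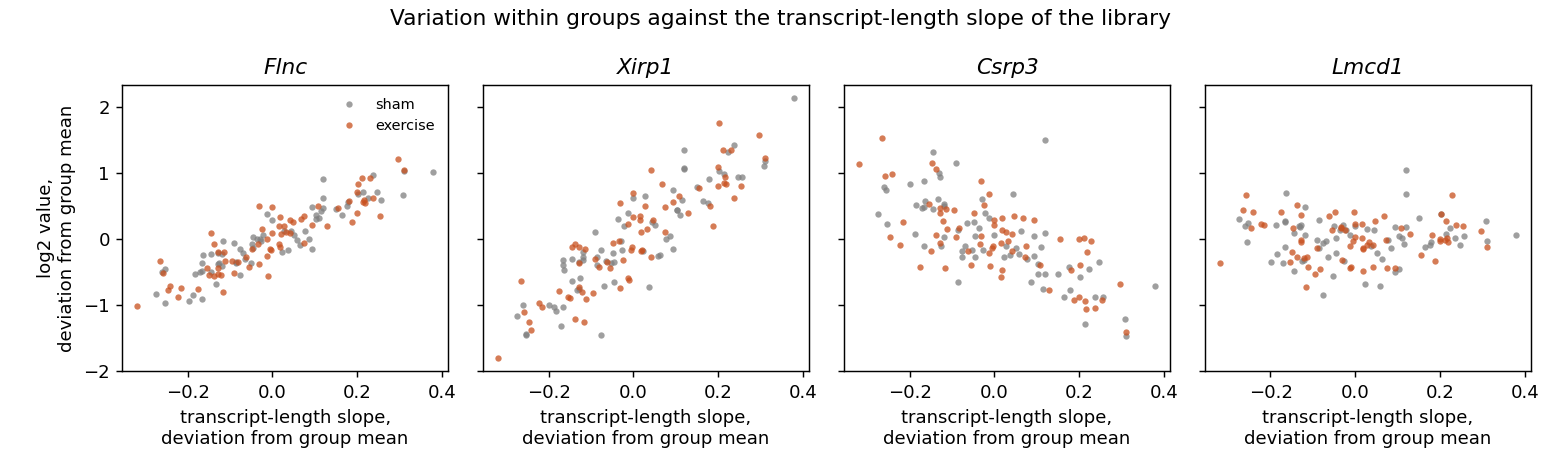
Deviation of log2 level from the group mean (y axis) against the library's transcript-length slope (x axis, log2 deviation per log2 exon length) for Flnc, Xirp1, Csrp3 and Lmcd1, with every library in each panel, sham in grey and exercise in orange. Flnc (r = 0.91) and Xirp1 (r = 0.89) climb with the slope, Csrp3 (r = -0.71) falls, and Lmcd1 (r = 0.02) is level.

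The slope also moved with exercise at some hours. Exercised minus sham, its mean was 0.18 (rest phase) and 0.15 (active phase) at 0 h. Later after rest-phase running the slope difference was -0.09 (4 h), 0.01 (8 h), -0.11 (12 h), -0.07 (16 h) and -0.10 (20 h). Csrp3, which ran against the slope within groups, was higher after running at each of these later hours. Active-phase slope differences were -0.12 (4 h), 0.21 (8 h) and -0.05 (20 h). They were 0.01 and 0.04 at 12 and 16 h there. At those 2 hours the effects were 0.97 and 0.92 for Xirp1 and 0.47 and 0.63 for Flnc without a call. With the slope as a covariate the rest-phase mean effect was 0.84 (SE 0.11) for Csrp3, 0.58 for Ankrd2 and 0.48 for Lmcd1, and it passed also for Xirp1 (0.70, SE 0.10), Ankrd1 (0.73, SE 0.18; limma, adjusted p = 0.016) and Flnc (0.32, SE 0.06; limma, adjusted p = 0.0001). The joint test passed for 5 members in each phase in that model (0.567% of genes after rest-phase running and 0.951% after active-phase running). The active-phase mean effect was then 0.78 for Csrp3, 0.71 for Ankrd1, 0.60 for Xirp1, 0.47 for Ankrd2, and 0.35 for both Flnc and Lmcd1, and all 6 passed. In the rest phase 6 of 8 members thus passed where 1.15% of all genes did, and in the active phase 6 where 1.13% did. At 12 h in the rest phase Csrp3 was 1.61 (SE 0.27; limma, adjusted p = 0.0002), Xirp1 1.13, Lmcd1 0.95 and Flnc 0.62, all of which passed (0.131% of genes). The Csrp3 effect at 8 h in the active phase went from 0.26 to 0.84. The 0 h values changed to -0.26 (SE 0.31) for Csrp3 and 0.12 (SE 0.16) for Flnc.

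A score of slow-fibre genes had r within groups from -0.31 for Flnc (rho = -0.34, adjusted permutation p = 0.0013) to 0.30 for Ankrd2 (rho = 0.27, adjusted permutation p = 0.0036). For Xirp1 r was -0.31, for Csrp3 0.28, for Lmcd1 0.26, for Fhl1 0.23, for Nexn -0.22 and for Ankrd1 -0.14. The range was narrower than for the length slope, but 7 of 8 relations passed, against 5 of 8 for the slope. Ankrd2, Lmcd1 and Fhl1 moved more with the score than with the slope. Between the 3 replicate strata r ran from -0.05 to 0.39 for Lmcd1, from -0.12 to 0.35 for Fhl1 and from -0.51 to -0.04 for Xirp1, and with a score of 3 slow-fibre genes Ankrd2 alone passed (r = 0.23, adjusted permutation p = 0.047). At 12 h in the rest phase the median effect over 9 slow-fibre markers was 0.43, with 7 of 9 positive. Atp2a2 was at -0.08 and Myh7, the slow myosin heavy chain, at -0.04, and Myl2, the slow light chain, was highest at 0.80. Of the 9, 0 passed in limma, edgeR or DESeq2 and 1 had an unadjusted p under 0.05 in each. In limma 692 of 11461 genes had one at that hour. With this score as a covariate Csrp3 at that hour still passed and Lmcd1 had an adjusted p of 0.056 in limma. The summed level of the 9 markers lay between 350.1 and 1617 in the rest-phase sham libraries and between 442 and 1854 in the exercised ones, and none of the 9 was at 0. At 0 h in the rest phase, where Csrp3 had an effect of -0.75 without a call, the median over these markers was -0.57, with 2 of 9 positive. Exercised minus sham, the mean score was -0.38 at that hour and 0.38 at 12 h in the rest phase. It was also -0.38 at 20 h in the active phase, where Csrp3 was higher by 1.11 in edgeR without a call. At the other hours the score difference lay between -0.09 and 0.25. The part of fibre type in the Csrp3 effects was not tested.

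Close relatives of the 8 genes were looked up for comparison. Of 12 measured family members, 0 passed for the mean effect in either phase in limma, edgeR or DESeq2 (0 at an unadjusted p under 0.05 in limma, and 1 in the rest phase in each of the others), and their median effect was -0.00 in both. Csrp1 and Csrp2, the LIM proteins of other tissues, had rest-phase mean effects of 0.02 and 0.21, Flna, a widely expressed filamin, -0.15, and Xirp2, the larger Xin-repeat protein, -0.04. Whether these differ from the members was not tested. Of 29 Z-disc and titin partners 0 passed for the mean effect in limma or edgeR, with medians of 0.04 and 0.12, and in both tools 2 had an unadjusted p under 0.05 after rest-phase running and 3 after active-phase running. DESeq2 called 1 of them in the rest phase, Lmod2, a thin filament leiomodin, and 0 in the active phase, where 4 had an unadjusted p under 0.05. The 15 genes of titin and calcineurin signalling held 0 calls in limma, edgeR and DESeq2, with 1 after rest-phase running and 2 after active-phase running at an unadjusted p under 0.05 in each. The 12 YAP and TEAD genes held 0 calls and 0 at an unadjusted p under 0.05 in all 3 tools.

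In the other lists a few genes passed. Trim63, the muscle ubiquitin ligase MuRF1 that sits at titin's M-line end, rose at 0 h in the rest phase by 1.16 (SE 0.22; limma, adjusted p = 0.001) and in the active phase by 0.94 (SE 0.19), with 0.349% and 1.18% of genes passing at those hours. Klhl40, which stabilises thin filament proteins, rose on average by 0.34 (SE 0.08; limma, adjusted p = 0.030) in the active phase, and Abra, an actin-binding activator of SRF, by 0.30 (SE 0.08; limma, adjusted p = 0.038). Hspb7 and Hspb1, small heat shock proteins, passed the test of all 6 hours together after active-phase running (limma, adjusted p = 0.035 and 0.038). Actg1, cytoplasmic gamma actin, rose by 0.83 (SE 0.15) at 0 h in the active phase. Mustn1, a small nuclear protein of regenerating muscle, rose on average by 0.61 (SE 0.12; limma, adjusted p = 0.0013) in the rest phase, and Cdkn1a, a cell cycle inhibitor, by 0.81 (SE 0.13) in the active phase.

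Over the 24 group means, the gene whose pattern was most like that of Csrp3 was Mustn1 (Pearson r = 0.86), ahead of Ankrd2 (0.83), Ttc9 (0.79), Lmcd1 (0.78) and Slc25a34 (0.76). For Ankrd2 and Lmcd1 the likest gene was the other one of the pair (0.91), and for Ankrd1 it was Lmcd1 (0.90). Hspb7 and Cryab, another small heat shock protein, were each among the 5 likest to Lmcd1 and to Ankrd1. Flnc was most like Diaph1 (0.93) and Myom3 (0.92), Xirp1 most like Tpra1 (0.87), Fhl1 most like Hspb7 (0.87) and Nexn most like Pds5b (0.79). Among the members, Xirp1 and Flnc had r = 0.82, and Nexn had r between -0.41 and 0.16 with the other 7. The groups include the exercise and the clock differences, and the levels of Flnc, Xirp1 and Csrp3 also follow the library slope.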

How the data were processed

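The labels describe total RNA depleted of ribosomal RNA, stranded libraries and 100-base paired reads from gastrocnemius muscle; 140 samples fall in 24 groups, and 3 had no file here. The submitters' processing notes list, with no order, edgeR 3.2.23, featureCounts 1.5.2, STAR 2.5.3a, cutadapt 1.16, Trim Galore 0.4.3 and FastQC 0.11.5, and the build mm10/GRCm38. The deposited values are a signal: reads per gene divided by a scaled library size. For the gene annotation, strandedness of counting and choice of the 11461 genes, no source used here gives the setting. Within a tolerance of 0.05 read, 100% of values in every library were whole multiples of 1 read, which gave 2193875 to 27589362 reads per library.

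The main test was limma 3.58.1 in R 4.3.3 on log2(value + 0.5), with 24 group means, a mean-variance trend and robust moderation, and Benjamini-Hochberg adjustment over all genes in each comparison. A fold change on this scale understates the change of low genes. edgeR 4.0.16 and DESeq2 1.42.0 on the recovered reads, other pseudocounts (0.1 and 2), a mean value of at least 5, replicate terms, library covariates and left-out libraries were the alternatives. The fit was tested on simulated data. Values per kilobase used GENCODE exon length, matched for 11449 genes by identifier. The members, gene lists and tests were chosen with earlier results of these data known, and no claim rests on the lists as independent evidence. The rule for named genes took all 8 members, up to 5 passing genes of each list with the smallest adjusted p, and for likeness the 5 genes with the highest correlation.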

Additional observations from a re-analysis of the deposited data

Results flagged for a closer look

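Of 192 gene-by-group sets of 4 to 6 libraries, 8 held a library set apart from the rest of its group by Dixon's test at the 95% level. Chance gives about 1 in 20. In exercised mice of the rest phase, Csrp3 at 0 h was 126.4 in replicate 1, with the nearest library at 81.6, and Nexn at 0 h was 32.9 in replicate 5, with the nearest at 40.3. Flnc at 4 h was 820 in replicate 4 (nearest 351), and Xirp1 at 8 h was 130.6 in replicate 1 (nearest 36.5). In sham mice of the rest phase, Ankrd2 at 12 h was 22.0 in replicate 4 (nearest 41.9), and Nexn at 20 h was 63.8 in replicate 1 (nearest 37.4). In exercised mice of the active phase, Lmcd1 at 0 h was 35.3 in replicate 6 (nearest 47.4), and Nexn at 12 h was 20.1 in replicate 6 (nearest 32.5).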

How the results depend on the processing

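The rest-phase mean and joint calls of Csrp3, Ankrd2 and Lmcd1 passed under all 12 alternatives run for them and in all 6 fits without a replicate number. Of the 48 hourly rest-phase comparisons, 2 passed; 5 did with the transcript-length slope, 7 with the slope and replicate strata, 1 with the slow-fibre score, 4 without the 6 poorly correlated libraries, 5 with each comparison's own libraries alone, and 0 to 4 with libraries left out. Hourly active-phase calls were 0, 1 with the slope and strata, 1 with own libraries alone, and 0 to 4 with libraries left out. Joint rest-phase calls rose from 3 to 5 with the slope, with or without strata. Joint active-phase calls rose from 3 to 5 with the slope, with slope and strata, without the 6 libraries and in DESeq2, and ran from 0 to 6 with libraries left out. Mean-effect calls, 8 in all, were 3 to 8 with libraries left out. For the effect between hours, 1 call (Csrp3, rest phase) replaced 0 when the later hours were set against 0 h. Calls among sham mice, for time of day and between arms together, went from 0 to 1 with the slope, with slope and strata and without the 6 libraries, and to 2 in DESeq2 (Xirp1 in each). Relations past the threshold fell from 12 to 6 with a slow-fibre score of 3 genes. Csrp3 at 12 h in the rest phase stayed between 1.66 and 2.11 with libraries left out. Its call did not hold in all of these fits, with an adjusted p of 0.21 in limma without the libraries numbered 5. The cause of these changes was not tested. None of the results reversed.

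Same-numbered libraries did not deviate together in every pair: of 66 pairs, 36 correlated over 0.1 (median 0.14, range -0.75 to 0.89), so the numbers were not read as pairing mice. With a replicate block the number of member calls did not change by over 1.5 times (2 hourly and 3 joint rest-phase calls, 0 hourly active-phase calls), and all genes passing for the mean effect were 34 (rest phase) and 63 (active phase). Ankrd1 rests on the fewest reads of the members, a median of 28 per library.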
